A study of Rattus norvegicus with 6 samples.

Results

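The genes described here are 10 that take up, store, release or regulate cellular iron: Tfrc, Steap3, Slc11a2, Fth1, Ftl1, Ncoa4, Slc40a1, Heph, Ireb2 and Aco1. They were measured in renal cortex of male Sprague-Dawley rats, purchased at 5 weeks of age and dosed for 4 weeks. The DNPT group (n = 3 rats) received 200 mg/kg/day of N,N'-dinitrosopentamethylenetetramine (DNPT), which belongs to the N-nitroso compounds, and the vehicle group (n = 3 rats) received corn oil. Both groups were kept on a basal diet and tap water, and each sample came from a separate animal on its own 1-colour Agilent array. The genes were found through the RefSeq accession of each probe: 24 of the 61537 probes that were not controls belonged to them, 1 to 5 probes per gene. All 24 were well above background on all 6 arrays, and none was saturated on any array. The comparison addresses which iron transcripts of the renal cortex differed after DNPT dosing.

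Cells import iron bound to transferrin through the transferrin receptor, reduce it in endosomes and move it into the cytosol through a divalent metal transporter. Surplus iron is stored inside ferritin shells or leaves the cell through ferroportin. Iron regulatory proteins sense cytosolic iron and bind iron-responsive elements in the mRNAs of these genes, which blocks translation of ferritin and ferroportin and protects the transferrin receptor mRNA from decay, so that part of the regulation does not appear in mRNA levels. The kidney filters iron and recovers it from the tubular fluid, mainly in the proximal tubule.

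Signals are log2 of the processed intensity relative to the 75th percentile of the array, with the mean ± SD over n = 3 rats. A change is the DNPT mean minus the vehicle mean, with the standard error (SE) and 95% interval of limma's moderated fit over 34915 features, and adjusted p-values are Benjamini-Hochberg values over all of them. Signals are not comparable between genes, since each probe has its own brightness. All vehicle arrays lay on slide 1 together with DNPT replicate 1, and were scanned on the same day, while the arrays of DNPT replicates 2 and 3 lay on slide 2, scanned on another day. Slide 2 holds no vehicle rat. A value with slide as a block therefore compares a single DNPT rat, replicate 1, with the 3 vehicle rats, and takes the spread from the other rats. An exact permutation test of 3 against 3 rats cannot go below 0.1. Between 42116 and 45167 probes per array were well above background, with all 3 DNPT arrays (42116 to 43402) below all 3 vehicle arrays (44730 to 45167). Precision is limited by the number of arrays.

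The tissue label was checked against listed markers. All 11 renal cortex markers were well above background on all 6 arrays, with a median change of -0.01. The 5 inner medulla markers were so too, so presence alone does not separate these regions. Their summed linear signals, relative to the 75th percentile, were 4.65 to 5.59 in DNPT rats and 4.53 to 5.06 in vehicle rats. Those of the cortex markers were 1701 to 2007 in DNPT rats and 1577 to 1784 in vehicle rats. Sums of different lists are not comparable, since each probe has its own brightness, so they do not separate these regions either. Summed linear signals of 7 tested red blood cell markers of 9 listed (the other 2 had no matched probe) were 701 to 788 times the 75th percentile in DNPT rats and 544 to 670 times in vehicle rats, without overlap. Of these 7 markers, 6 had positive changes, against 57% of named genes, and 4 separated the groups upward, against 14.8%. Of 10 macrophage markers 3 were not above background on enough arrays to be tested. The summed signals of the other 7 were 58.7 to 77.4 in DNPT rats and 70.9 to 89.3 in vehicle rats. Of these macrophage markers, 0 of the 7 had a positive change, against 57% of named genes. Hepatocyte markers summed to 9.92, 9.31 and 36.2 in DNPT replicates 1, 2 and 3, and to 8.42 to 10.6 in vehicle rats. DNPT replicate 3 stood apart in that sum, to which Apoc3, bright in every rat (log2 2.70 to 3.41), adds much. Alb alone varied more, at log2 -1.25, -4.73 and 3.76 in DNPT replicates 1, 2 and 3. In vehicle replicates 1, 2 and 3 Alb read -4.72, 0.48 and -1.84, so vehicle replicate 2 was also high for it. In these bulk samples a different number of cells of a type and a different amount of RNA per cell cannot be told apart.

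None of the 10 genes passed the test after adjustment: 0 were called at an adjusted p under 0.05, as were 0% of all features. At an unadjusted limma p under 0.05, 1 gene, Slc11a2, lay higher in DNPT rats, against 5.95% of all features and 7.15% of named genes. At that threshold 0 lay lower, against 6.16% and 5.23%. Slc11a2 was not under that threshold with slide as a block, and the 1 gene that was, Steap3, lay lower. The groups separated with every DNPT rat higher in 1 of the 10 genes (Slc11a2), against 11.9% of features and 14.8% of named genes. They separated with every DNPT rat lower in 1 (Heph), against 8.32% and 7.39%. These shares are near the background. Changes were positive in 7 genes and negative in 3, against 51.9% positive among all features and 57% among named genes. The median change of the 10 genes was 0.13, against 0.01 over all features and 0.04 over named genes. Set against the vehicle mean, DNPT replicates 1, 2 and 3 had medians of -0.0043, 0.11 and 0.20, so the median was near 0 in the only DNPT rat on the vehicle slide.

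**Figure D1:**
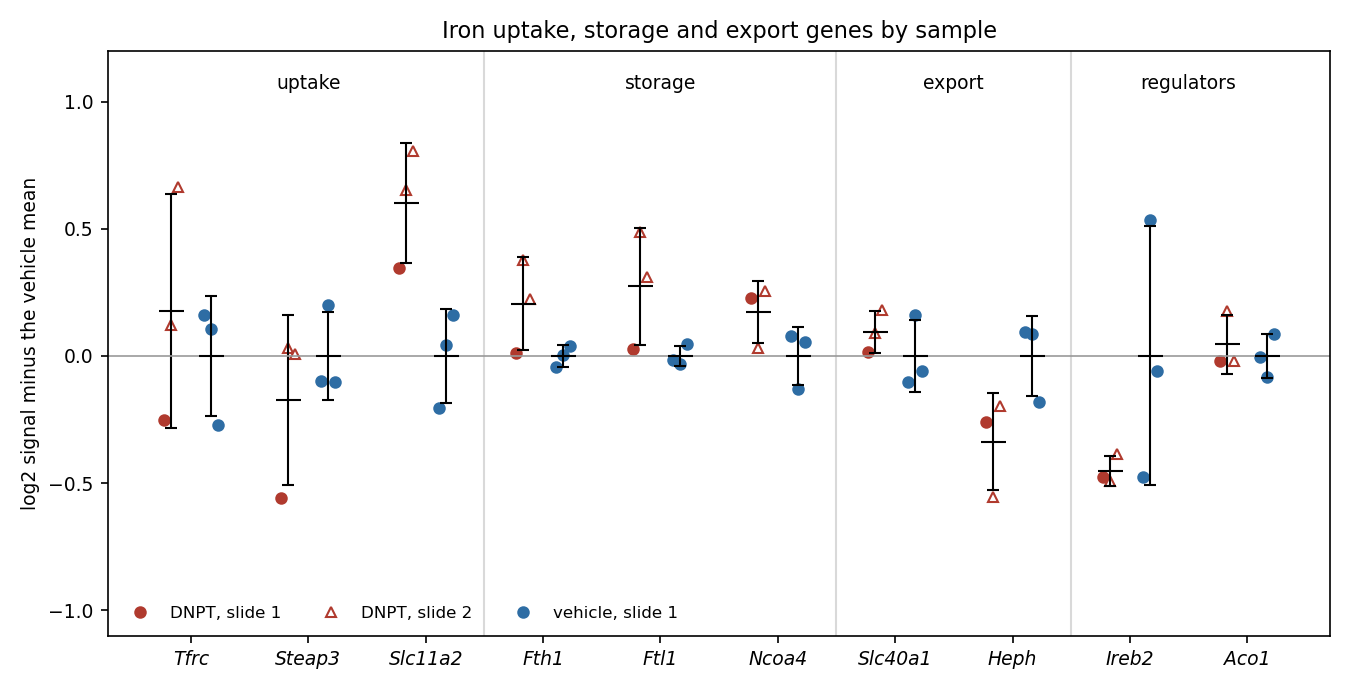
Log2 signal of each gene's brightest probe in each rat, minus that gene's vehicle mean, with DNPT rats left of vehicle rats. Each point is 1 rat (circles for slide 1, triangles for slide 2), and bars are the mean ± SD over 3 rats. Slc11a2 is the gene whose 3 DNPT values (differences of 0.35, 0.65 and 0.80) all lay above the vehicle values, and Heph the one whose DNPT values all lay below them.

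The uptake gene Slc11a2 encodes the divalent metal transporter DMT1, which moves ferrous iron across the apical and endosomal membranes. Its signal was 4.22, 4.52 and 4.68 in DNPT replicates 1, 2 and 3, and 3.67, 3.91 and 4.03 in vehicle replicates 1, 2 and 3. The lowest DNPT value, from the rat on the vehicle slide, lay above the highest vehicle value. Slc11a2 averaged 4.47 ± 0.23 in DNPT rats and 3.87 ± 0.19 in vehicle rats (SD, n = 3 each), a 1.52-fold difference with a 95% interval of 1.15-fold to 1.99-fold. The change was 0.60 (SE 0.16), and it did not pass over all features (limma adjusted p = 0.356). With slide as a block it was 0.35 (SE 0.18, limma adjusted p = 0.802). With each rat left out in turn it was 0.50 to 0.73 and always positive. The raw processed intensities were 20665, 21926 and 25452 in DNPT rats and 15843, 20046 and 19026 in vehicle rats, so the lowest DNPT array still read above the highest vehicle array before any scaling. The summed signal of the red blood cell markers, given above because red cell precursors use DMT1, also lay higher in DNPT rats without overlap after scaling. Of the 7 markers 4 did so singly, against 14.8% of named genes. Before scaling, Hba-a1, the brightest of them, overlapped, at 419504, 335251 and 389760 in DNPT rats and 329763, 446652 and 335042 in vehicle rats. The part of the red blood cell markers in the Slc11a2 value was not tested.

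Slc11a2 transcripts are made from alternative first exons and end in alternative 3′ regions, of which one carries an iron-responsive element. Its 3 probes did not show the same change. The probe used above had a change of 0.60, and the probe next in brightness had 0.51 (SE 0.13, limma adjusted p = 0.352 over all probes). The dimmest probe had 0.17 (SE 0.11, limma adjusted p = 0.549 over all probes). The mean of both brighter probes minus the dimmest, relative to the vehicle mean, was 0.27, 0.46 and 0.42 in DNPT replicates 1, 2 and 3, and -0.12, 0.13 and -0.01 in vehicle replicates 1, 2 and 3. All 3 DNPT rats lay above all 3 vehicle rats in that difference, which was chosen after the probe values were seen and has no test. The probe annotation used here does not say which first exon or 3′ region each probe reads.

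RefSeq (assembly GRCr8) places the start sites of Slc11a2 at 2 positions 1151 bases apart on the minus strand of chromosome 7. The promoter stretches are shown because the gene had the only change past an unadjusted p of 0.05. The changes of its probes, all positive, also differed in size, and that difference was not tested. Capitals mark CG dinucleotides. In order of coordinate, the first, chr7:133417789-133418038, had 68% G or C and 19 CG dinucleotides, and the second, chr7:133418940-133419189, had 43.6% and 5. Since the gene is on the minus strand, the second stretch lies upstream of the first. Over the same 250 bases of all RefSeq promoter windows the medians were 51.2% and 5. Both are the 250 bases before a start site, read 5′ to 3′.
Slc11a2 first stretch: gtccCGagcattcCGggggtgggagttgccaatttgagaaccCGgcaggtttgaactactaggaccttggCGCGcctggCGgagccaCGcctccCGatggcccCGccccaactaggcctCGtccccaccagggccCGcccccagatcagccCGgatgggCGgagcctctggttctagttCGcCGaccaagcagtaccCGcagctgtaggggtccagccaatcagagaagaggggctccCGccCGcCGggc
Slc11a2 second stretch: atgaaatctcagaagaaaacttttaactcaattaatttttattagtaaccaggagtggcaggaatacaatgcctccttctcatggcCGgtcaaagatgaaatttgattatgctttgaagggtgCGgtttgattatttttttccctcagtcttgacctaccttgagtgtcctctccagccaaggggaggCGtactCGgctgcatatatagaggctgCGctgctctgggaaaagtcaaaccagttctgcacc
Which of these start sites was used was not measured by the arrays.

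Tfrc, the transferrin receptor, brings transferrin-bound iron into the cell. Its signal was 1.12, 1.49 and 2.03 in DNPT replicates 1, 2 and 3, and 1.53, 1.48 and 1.10 in vehicle replicates 1, 2 and 3. The groups overlapped, with the highest value in DNPT replicate 3 and DNPT replicate 1 among the lowest. Tfrc averaged 1.55 ± 0.46 in DNPT rats and 1.37 ± 0.24 in vehicle rats, a change of 0.18 (SE 0.26, 95% interval -0.46 to 0.81, adjusted p = 0.782). Without DNPT replicate 3 the change was -0.07, without DNPT replicate 1 it was 0.39 and without vehicle replicate 3 it was 0.04. With slide as a block it was -0.25. The other 2 Tfrc probes had changes of 0.07 and -0.16, so the probes differed in sign. As a fold, the interval ran from 0.728 to 1.76, so the direction of a difference was not resolved here.

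Steap3 encodes the endosomal ferrireductase that turns ferric into ferrous iron after transferrin uptake. The single Steap3 probe was dim but well above background, at -4.79, -4.20 and -4.23 in DNPT replicates 1, 2 and 3, and -4.33, -4.03 and -4.33 in vehicle replicates 1, 2 and 3. DNPT replicate 1 was the lowest of the 6 rats, and the other DNPT values lay inside the vehicle range. The change was -0.17 (SE 0.19, adjusted p = 0.715). It was 0.02 without DNPT replicate 1 and -0.07 without vehicle replicate 2. With slide as a block, a value that DNPT replicate 1 alone provides, it was -0.56 (SE 0.16, limma adjusted p = 0.60).

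Ferritin is a shell of heavy and light chains. Fth1, the heavy chain, which oxidises the iron as it enters, read 8.50, 8.86 and 8.71 in DNPT replicates 1, 2 and 3, and 8.44, 8.49 and 8.53 in vehicle replicates 1, 2 and 3. Ftl1, the light chain, which helps the iron core to form, read 9.09, 9.55 and 9.37 in DNPT replicates 1, 2 and 3, and 9.04, 9.03 and 9.11 in vehicle replicates 1, 2 and 3. On the brightest probe of each chain, read here, DNPT replicates 2 and 3 lay above all vehicle rats. DNPT replicate 1, on the vehicle slide, lay inside the vehicle range on these probes, which did not hold for every ferritin probe.

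Fth1 averaged 8.69 ± 0.18 in DNPT rats and 8.49 ± 0.04 in vehicle rats, a change of 0.20 (SE 0.11, 1.15-fold, adjusted p = 0.481). Ftl1 averaged 9.34 ± 0.23 in DNPT rats and 9.06 ± 0.04 in vehicle rats, a change of 0.27 (SE 0.13, 1.21-fold, adjusted p = 0.442). Taking slide as a block, the changes were 0.01 for Fth1 and 0.03 for Ftl1, so slide and group cannot be told apart in the higher values of these brightest probes. Without DNPT replicate 2 they were 0.12 for Fth1 and 0.17 for Ftl1. Some other normalizations also gave smaller values: quantile normalization, normexp with quantile normalization and cyclic loess gave 0.081, 0.045 and 0.051 for Fth1, and 0.14, 0.046 and 0.11 for Ftl1. Median scaling gave larger ones, 0.23 for Fth1 and 0.30 for Ftl1.

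Ferritin was read by several probes. All 4 Fth1 probes had positive changes (0.08 to 0.20), and 1 of them, with a change of 0.19 (limma adjusted p = 0.425 over all probes), separated the groups. All 5 Ftl1 probes had positive changes (0.07 to 0.27), and 0 of them separated the groups. On the probes next in brightness the rats lay as on the brightest ones. On the separating Fth1 probe DNPT replicate 1 read 7.53, against at most 7.41 in vehicle rats. On the dimmest Fth1 probe DNPT replicate 1 was the highest rat (6.81), and DNPT replicate 3 (6.71) lay inside the vehicle range (6.65 to 6.74). On the dimmest Ftl1 probe DNPT replicate 3 (7.18) lay inside the vehicle range (7.01 to 7.33). The brightest probes lay at 51.6% to 61.4% of the saturation value for Fth1 and at 77.7% to 91.4% for Ftl1. RefSeq lists 6 relatives named after Fth1, 5 of them pseudogenes, and 21 named after Ftl1, 15 of them pseudogenes. No probe was matched to any of these relatives, and the ferritin signals are uncertain to the extent that near-identical copies bind the same probes.

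The chains were also compared within each array. Relative to the vehicle mean, Fth1 minus Ftl1 was -0.02, -0.11 and -0.09 in DNPT replicates 1, 2 and 3, and -0.03, 0.04 and -0.01 in vehicle replicates 1, 2 and 3. A difference taken within an array is free of that array's scaling, and the largest of these 6, in DNPT replicate 2, was smaller than the change of either chain.

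Ncoa4 encodes the cargo receptor that carries ferritin to the lysosome, where its iron is released. It read 2.09, 1.90 and 2.12 in DNPT replicates 1, 2 and 3, and 1.94, 1.73 and 1.92 in vehicle replicates 1, 2 and 3. The groups overlapped through DNPT replicate 2. The change was 0.17 (SE 0.11, 95% interval -0.09 to 0.44, adjusted p = 0.512). It was 0.23 with slide as a block, 0.11 without vehicle replicate 2 and 0.11 with normexp and quantile normalization. Its second, dimmer probe had a change of 0.31 (SE 0.12, limma adjusted p = 0.420 over all probes), with every DNPT rat above every vehicle rat. Over all 24 probes of the 10 genes, 20 had positive changes, against 51.5% of all probes, 3 were higher at an unadjusted p under 0.05, against 5.66%, and 4 separated the groups upward, against 11.4%. Probes of a gene are not independent, and 9 of the 20 belong to ferritin.

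**Figure D2:**
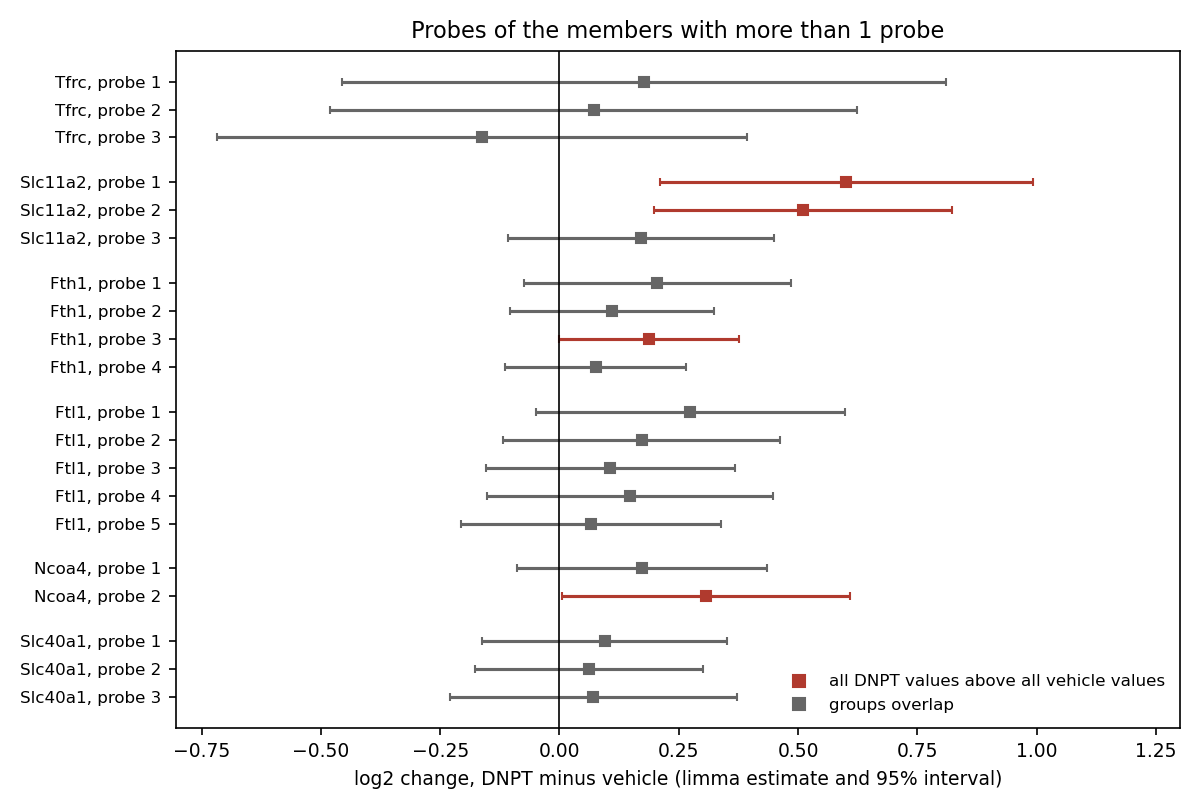
Change of every probe of the genes with more than 1 probe, as limma's estimate of DNPT minus vehicle on the log2 scale with its 95% interval. The estimates of the Fth1 and Ftl1 probes all lie right of 0 (0.07 to 0.27), with intervals that include 0, the Slc11a2 probes run from 0.17 to 0.60, and the Tfrc probes lie on both sides of 0 (-0.16 to 0.18).

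Slc40a1 encodes ferroportin, the iron exporter of the basolateral membrane. It read 2.02, 2.09 and 2.18 in DNPT replicates 1, 2 and 3, and 1.90, 2.16 and 1.94 in vehicle replicates 1, 2 and 3. Vehicle replicate 2 lay between the DNPT values. The change was 0.09 (SE 0.10, adjusted p = 0.711), and the 95% interval of the fold was 0.893 to 1.28. Leaving out vehicle replicate 2 gave 0.18, leaving out vehicle replicate 1 gave 0.044, and leaving out DNPT replicate 3 gave 0.053. It was 0.016 with slide as a block and 0.047 with cyclic loess. Its other 2 probes had changes within the range of 0.06 to 0.09 spanned by the gene.

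Heph encodes hephaestin, the copper ferroxidase that oxidises iron as ferroportin releases it. It read -0.10, -0.39 and -0.03 in DNPT replicates 1, 2 and 3, and 0.26, 0.25 and -0.02 in vehicle replicates 1, 2 and 3. All 3 DNPT values lay below all 3 vehicle values, but DNPT replicate 3 and vehicle replicate 3 were separated by less than the spread within either group. Heph averaged -0.17 ± 0.19 in DNPT rats and 0.16 ± 0.16 in vehicle rats, a change of -0.34 (SE 0.14, limma adjusted p = 0.415), or 1.26-fold lower. With slide as a block it was -0.26, and with each rat left out in turn it was -0.43 to -0.23.

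The iron regulatory proteins are encoded by Aco1, whose product is also the cytosolic aconitase when it holds an iron-sulfur cluster, and by Ireb2, whose product is degraded when iron is plentiful. Ireb2 read -2.90, -2.91 and -2.81 in DNPT replicates 1, 2 and 3, and -2.90, -1.88 and -2.48 in vehicle replicates 1, 2 and 3. The DNPT rats lay close together near the lowest vehicle rat, and vehicle replicate 2 was the highest. The change was -0.45 (SE 0.26, 95% interval -1.08 to 0.18, adjusted p = 0.486). It was -0.18 without vehicle replicate 2 and -0.69 without vehicle replicate 1, so the vehicle rats set its size. Aco1 read 6.12, 6.32 and 6.12 in DNPT replicates 1, 2 and 3, and 6.14, 6.06 and 6.23 in vehicle replicates 1, 2 and 3. The groups overlapped, with a change of 0.05 (SE 0.10, adjusted p = 0.861) and a 95% interval of the fold of 0.872 to 1.22.

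Uptake and storage genes were also set against each other within each array. The mean of Tfrc and Slc11a2 minus the mean of Fth1 and Ftl1, relative to the vehicle mean, was 0.03, -0.04 and 0.47 in DNPT replicates 1, 2 and 3, and 0.01, 0.09 and -0.10 in vehicle replicates 1, 2 and 3. Only DNPT replicate 3 lay above the vehicle range. The uptake genes differed from each other: Slc11a2 minus the ferritin mean was 0.32, 0.22 and 0.54 in DNPT replicates 1, 2 and 3, and -0.17, 0.06 and 0.12 in vehicle replicates 1, 2 and 3. Every DNPT rat lay above every vehicle rat in that difference. Tfrc minus the ferritin mean was -0.27, -0.31 and 0.40 in DNPT replicates 1, 2 and 3, and 0.19, 0.12 and -0.31 in vehicle replicates 1, 2 and 3, with overlapping groups. Only the difference of both uptake genes together was planned, and those of Slc11a2 and Tfrc singly were not. Slc11a2 already separated the groups by itself, so its separation here is not further support. These differences are given without a test.

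**Figure D3:**
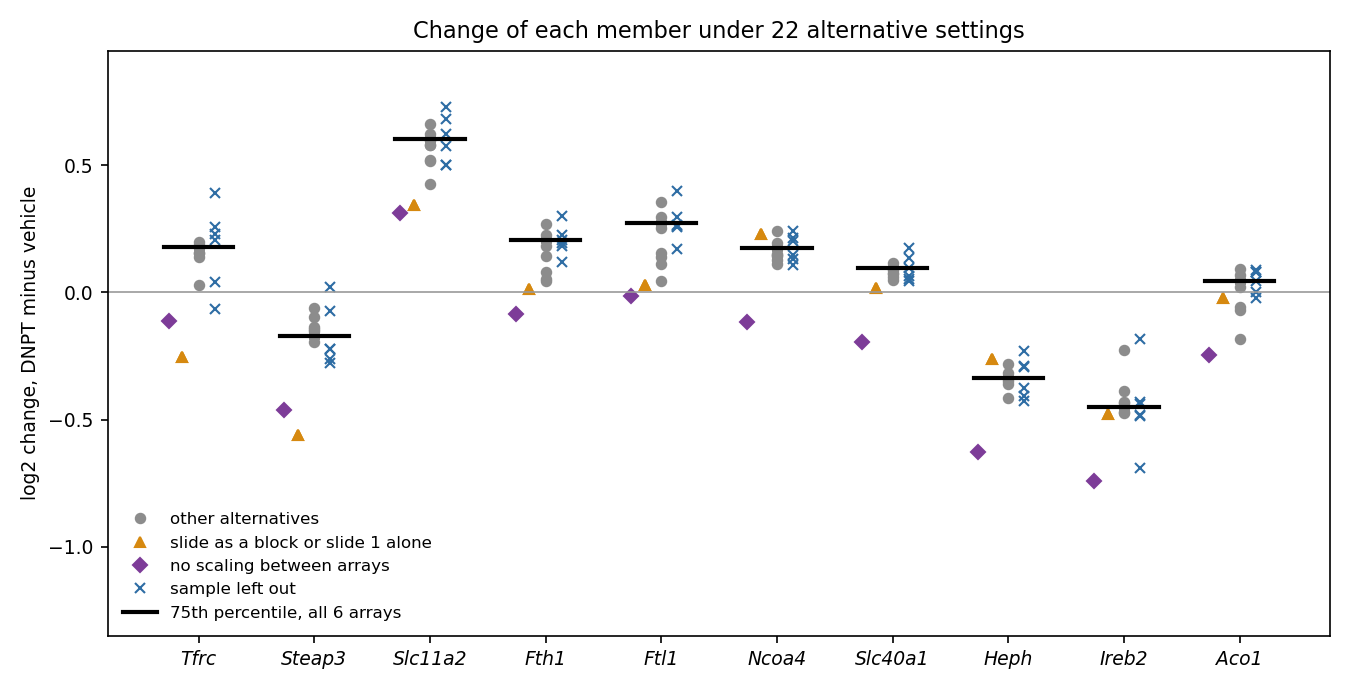
Change of each gene (DNPT minus vehicle, log2) as reported and under 22 alternative settings, with 1 point per setting. Slc11a2 stays above 0 (0.31 to 0.73) and Heph and Ireb2 stay below it, while the other 7 genes have points on both sides of 0: for Fth1, Ftl1, Ncoa4 and Slc40a1 the only setting below 0 leaves the arrays unscaled, and Steap3 lies above 0 in 1 setting (0.020).

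Promoter windows of RefSeq, from 250 bases before to 50 after the start, were available for 8 of the 10 genes, in 9 windows, and were searched on both strands. ACGTG, the core letters of a hypoxia response element, occurred in 2 of the 8 genes (Tfrc and Ncoa4), against 19.3% of 33469 promoters. TGACNNNGC, the core of an antioxidant response element, occurred in 1 (Ncoa4), against 12.1%. CAGTGN, the loop letters of an iron-responsive element, which acts in RNA, occurred in 3 (Ireb2, Steap3 and Heph), against 56.6%. The matches of Steap3 and Heph lay before the start, and that of Ireb2 lay on the strand opposite to the gene. None was therefore in the RNA of its gene, and the windows do not reach the 3′ regions, where Slc11a2 can carry this element. A match is a description of letters and not a site. The stretches with the response element letters are shown with those letters in capitals, for Tfrc at chr11:81690319-81690378 on the minus strand and for Ncoa4 at chr16:7401691-7401790 on the plus strand.
Tfrc: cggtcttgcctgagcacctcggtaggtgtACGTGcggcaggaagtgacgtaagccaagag
Ncoa4: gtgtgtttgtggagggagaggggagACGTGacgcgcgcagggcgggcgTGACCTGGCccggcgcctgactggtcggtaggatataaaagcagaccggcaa
Neither Slc11a2 window held any of the 3 motifs, and the changes of Tfrc and Ncoa4 did not pass the test.

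Around these 10 genes, 86 further genes of iron and heme handling were listed by role, of which 78 had a matched probe and 76 were tested. None was called. Changes were positive in 56 and negative in 20, against 57% positive among all named genes, with a median of 0.10, against 0.04. At an unadjusted limma p under 0.05, 14 lay higher and 3 lower, against 7.15% and 5.23% of named genes. Every DNPT rat lay above every vehicle rat in 22 and below in 4, against 14.8% and 7.39%.

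Of the sensing and hepcidin genes, 7 of 8 tested had positive changes (median 0.07), and 0 reached an unadjusted p under 0.05. Without DNPT replicate 1, 4 of 8 were positive. Hamp, which encodes the hormone hepcidin, read -3.94, -4.43 and -3.55 in DNPT replicates 1, 2 and 3, and -4.30, -4.31 and -4.46 in vehicle replicates 1, 2 and 3, a change of 0.38 (SE 0.23, adjusted p = 0.499). Its highest value was in DNPT replicate 3, where the hepatocyte markers were also highest, and their part in it was not tested. The oxygen sensing subunits Hif1a and Epas1 had changes of 0.09 (SE 0.11) and 0.23 (SE 0.10). For Epas1 every DNPT rat lay above every vehicle rat, as in 14.8% of named genes. Tfr2, a transferrin sensor, was not well above background on any array and was not tested.

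Among 15 other carriers, reductases and ferritin receptors, 10 had positive and 5 negative changes (median 0.10). At an unadjusted limma p under 0.05, 3 were higher and 1 lower, against 7.15% and 5.23% of named genes. The lower one was Timd2, a ferritin receptor in rodents. It read 1.23, 1.23 and 1.33 in DNPT replicates 1, 2 and 3, and 2.07, 2.22 and 2.17 in vehicle replicates 1, 2 and 3. The groups were far apart relative to their spread, including the DNPT rat on the vehicle slide. The change was -0.89 (SE 0.08, 1.85-fold lower), and it did not pass over all features (adjusted p = 0.149). With slide as a block it was -0.92. Scara5, another ferritin receptor, had a change of 0.55 (SE 0.40) and of -0.09 with slide as a block. Slc39a14, a zinc and iron importer, had -0.24 (SE 0.22). The endocytic receptors Lrp2 (megalin) and Cubn (cubilin), which recover transferrin and other proteins from the tubular fluid, had changes of 0.08 (SE 0.07) and 0.14 (SE 0.15).

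Of 9 iron chaperone and ferritin turnover genes, 5 had positive changes (median 0.04), and 3 of 9 did without DNPT replicate 3. Cisd1, an iron-sulfur protein of the outer mitochondrial membrane, had a change of 0.20 (SE 0.11), and the glutaredoxin Glrx3 had -0.01 (SE 0.07). Iron-sulfur cluster assembly had 15 of 21 positive changes (median 0.10). It had 6 genes higher and 0 lower at an unadjusted limma p under 0.05, against 7.15% and 5.23% of named genes. Its brightest genes were Ciapin1 (0.24, SE 0.09), of the cytosolic pathway, and Iba57 (-0.13, SE 0.22), of the mitochondrial one. The list's median was 0.10, 0.11 and 0.13 in DNPT replicates 1, 2 and 3, of which only replicate 1 lay on the vehicle slide.

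Heme synthesis had 11 of 13 positive changes (median 0.13). It had 3 genes higher and 1 lower at an unadjusted limma p under 0.05, against 7.15% and 5.23% of named genes. Alad, the enzyme that makes porphobilinogen, had a change of 0.47 (SE 0.13, adjusted p = 0.366), with separate groups, and with slide as a block it had 0.25. Urod, a later enzyme of the pathway, had 0.34 (SE 0.14) and 0.07 with slide as a block. The summed red blood cell markers lay higher in DNPT rats as given above, and their part in these values was not tested. Alas2, the red cell form of the first enzyme, is in both lists and had a change of 0.32 (SE 0.16, adjusted p = 0.452), with overlapping groups. Heme breakdown and transport had 8 of 10 positive changes (median 0.11). Its brightest genes were the constitutive heme oxygenase Hmox2 (0.22, SE 0.08) and the heme-binding protein Pgrmc1 (0.14, SE 0.07). Hmox1, the inducible heme oxygenase, had 0.10 (SE 0.35). Cd163, the scavenger receptor for hemoglobin on macrophages, was well above background on 1 array and was not tested.

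**Figure D4:**
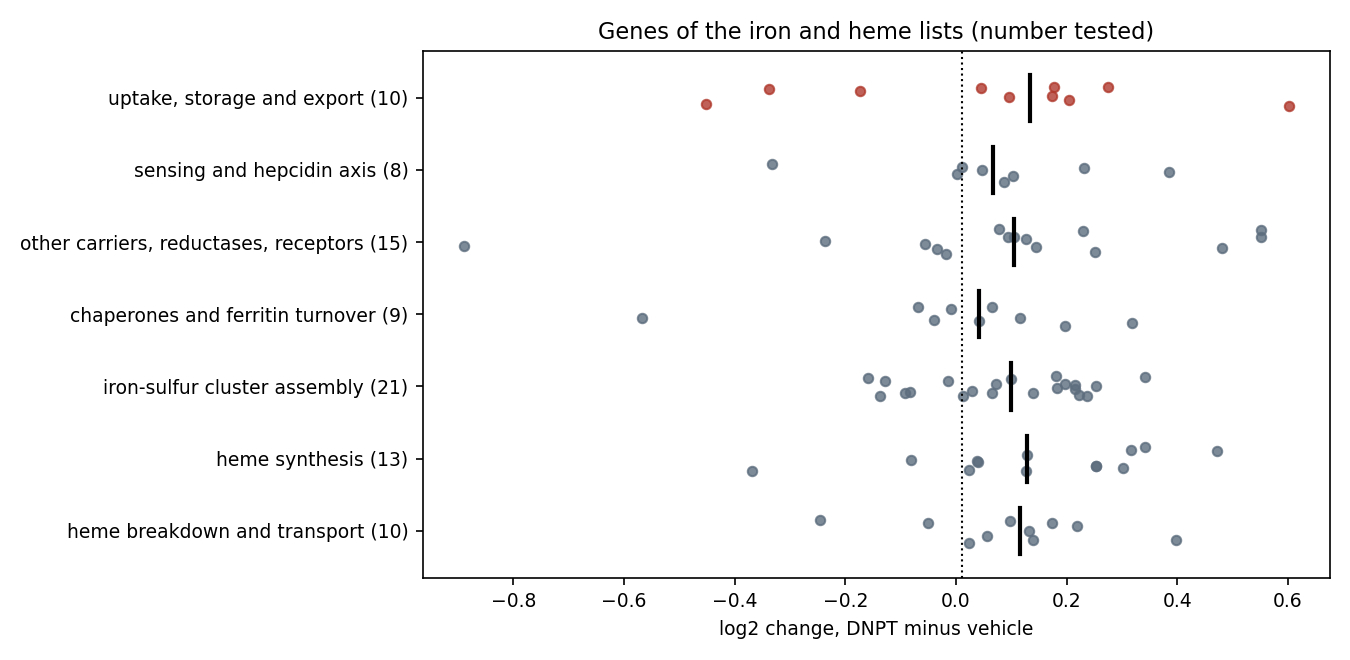
Change (DNPT minus vehicle, log2) of each tested gene of the 10 described genes and of the 6 iron and heme lists, with 1 point per gene, a bar at each list's median and a dotted line at the median of all features (0.01). The medians of the 6 lists lie between 0.04 and 0.13, and Timd2 (-0.89) stands below the rest of its list.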

How the data were processed

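Total RNA of renal cortex was labelled as Cy3 cRNA and hybridised to 1-colour Agilent arrays, per the labels' protocols. Agilent Feature Extraction 10.7 read the scans, per the submitters' processing notes. The deposited scanner files hold the processed signal of each spot, a linear intensity corrected for background, per the file headers. In the deposited value table each entry is a linear ratio, which equalled the processed signal divided by a constant near the array's 75th percentile (within 0.5% for 100% of probes with a ratio above 0.5), without centring, with column medians of 0.112 to 0.116. The sources used here do not give how the authors made it.

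Control spots and 113 outlier values were left out. The measure was log2 of the processed signal minus the array's 75th percentile over all probes that were not controls. Probes well above background on at least 3 of 6 arrays, with at least 2 values per group, were tested. Gene names came from RefSeq's table for GRCr8, through each probe's accession with its version removed: 28206 probes matched 1 gene, 0 several and 33331 none. A gene was represented by its brightest tested probe and unmatched probes stood alone, which left 34915 features, 12687 of them named genes. Gene coordinates are left out, since the array was designed on another, older assembly. The files hold no probe sequences, so shared binding between near-identical genes could not be checked.

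The DNPT and vehicle groups were the only term of a two-sided limma fit (lmFit and eBayes, limma 3.58.1, R 4.3.3). P-values were adjusted by Benjamini-Hochberg over all features, with a threshold of 0.05, and the same fit was run over all 44305 probes that passed. The procedure was tested on simulated data. Python 3.11.15 with pandas 2.3.3 and matplotlib 3.10.9 made the summaries and plots. The rule for named genes took all 10 genes, in each list up to 4 genes that passed or else its 2 brightest, and Hamp, Tfr2, Slc39a14, Scara5, Timd2, Hmox1 and Fbxl5. Fbxl5 had no matched probe. The genes and lists were chosen with earlier results of these data known. Apart from Tcn2, plasma proteins were left out of the iron and heme lists. The hepatocyte marker list does hold them, Alb among them.

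Alternatives were quantile normalization, normexp background correction (offset 50, on the median signal of each spot, in place of the mean signal that was planned) with quantile normalization, median scaling, cyclic loess, the deposited ratios, no filter or a stricter one on dim probes, the mean of a gene's probes or each probe singly, array weights, an intensity trend with a robust prior, a block for slide or for replicate number, slide 1 by itself and each rat left out. The 75th percentile over probes well above background on all arrays and no scaling between arrays were chosen after seeing the data.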

Additional observations from a re-analysis of the deposited data

How the results depend on the processing

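Over 22 alternatives 0 of the 10 genes was called. Slc11a2 stayed positive in all 22 (0.31 to 0.73, limma adjusted p = 0.0916 to 0.802, unadjusted p under 0.05 in 19), and Heph (-0.63 to -0.23) and Ireb2 (-0.74 to -0.18) stayed negative. The number of features called, 0 as reported, was 5 with normexp, 1 with an intensity trend and robust prior, 1 with slide as a block, 1 without scaling and 0 to 623 with each rat left out; the 623 came without DNPT replicate 1, and 3 without vehicle replicate 2. Of the 10 genes, 1 as reported had an unadjusted limma p under 0.05. That count was 2 with normexp, 2 with cyclic loess, 2 with probes well above background on all 6 arrays, 2 with the percentile over detected probes, 3 with a trend and robust prior, 3 without scaling, 4 with array weights and 1 to 3 with each rat left out. The count was again 1 with slide as a block and on slide 1 alone, but the gene was Steap3, lower in the DNPT rat, and not Slc11a2. Their median of 0.13 was -0.0043 with slide as a block and on slide 1 alone, 0.070 with quantile normalization, 0.045 with normexp, 0.049 with cyclic loess, 0.060 with the mean of a gene's probes, -0.16 without scaling and 0.07 to 0.14 with each rat left out. Positive changes numbered 7 as reported, 5 with slide as a block and on slide 1 alone (where 3 of the 10 genes lay above the median of all features), 1 without scaling and 6 to 8 with each rat left out.

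Signs turned in these cases, and the cause was not tested. Aco1 was -0.056 with quantile normalization, -0.18 with normexp, -0.071 with cyclic loess, -0.021 with slide as a block and on slide 1 alone, and -0.021 to 0.088 with each rat left out. Tfrc was -0.25 with slide as a block and on slide 1 alone, and -0.066 to 0.39 with each rat left out, and Steap3 was -0.28 to 0.020. Without scaling, Tfrc was -0.11, Fth1 -0.086, Ftl1 -0.016, Ncoa4 -0.12, Slc40a1 -0.20 and Aco1 -0.25. In that setting the median of all features was -0.28, against 0.01 as reported, and relative to it Slc11a2 was at 0.59 and 7 of the 10 genes lay above it. It left 269 features with all DNPT values above all vehicle values and 13037 below, against 4157 and 2906 as reported. With no filter on dim probes these were 9549 and 3375. With each rat left out, 4 to 7 sensing and hepcidin genes and 3 to 7 chaperone and ferritin turnover genes were positive.

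Replicate numbers are shared by the groups, but same-numbered rats did not deviate together (correlations of -0.18, -0.06 and -0.18). With replicate number as a block, 3094 features had an unadjusted p under 0.05, against 4227 as reported, 0 of the 10 genes was called, and Slc11a2 was at 0.60 (limma adjusted p = 0.551). All 24 probes were well above background on every array.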

Other observations

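Outside the rule for named genes, and chosen after their values were seen, 2 relatives of Steap3 lay higher in DNPT rats. Of these, Steap2 encodes a metalloreductase of the plasma and endosomal membranes. Steap2 read 4.27, 4.36 and 4.32 in DNPT replicates 1, 2 and 3, and 3.86, 3.85 and 3.79 in vehicle replicates 1, 2 and 3. Steap1 read 2.61, 2.55 and 2.64 in DNPT replicates 1, 2 and 3, and 2.22, 2.06 and 1.87 in vehicle replicates 1, 2 and 3. In both genes every DNPT rat, including the one on the vehicle slide, lay above every vehicle rat, as in 14.8% of named genes. The changes were 0.48 for Steap2 (SE 0.08, limma adjusted p = 0.259) and 0.55 for Steap1 (SE 0.11, limma adjusted p = 0.294), and 0.43 and 0.56 with slide as a block. Neither passed over all features. Their relative Steap4 had a change of 0.13 (SE 0.17) with overlapping groups. Steap3 itself had a change of -0.17 (SE 0.19), which was 0.020 without DNPT replicate 1, so its sign was not resolved.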
